A study of Mus musculus with 6 samples.

Results

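The genes described here are Trp53inp2 and its paralogue Trp53inp1, the ATG8 genes Map1lc3a, Map1lc3b and Gabarapl1, the cargo receptor genes Sqstm1 and Bnip3, the kinase gene Ulk1, and the FoxO genes Foxo1 and Foxo3. They are the rows of the deposited table with these 10 names, of 21959 rows in all, and all 10 passed the filter on low counts that left 13566 genes for testing. The set was chosen by genes' read counts in the same comparison of groups, with its results in view, so the differences between groups given for these 10 genes are a description, with no test read from them. RNA was sequenced from mouse white adipose tissue of the genotypes labelled WT and ++Oxtr, with 3 libraries each: WT replicates 10, 11 and 12 and ++Oxtr replicates 7, 8 and 9. By the series text the fat is gWAT, gonadal white adipose tissue. Strain, age and treatment, the construct behind the name ++Oxtr and what drives it are not given in the labels, and the deposited column names mark the ++Oxtr libraries as tg. Nothing says that the libraries come from separate animals, so p-values measure the spread between these libraries, which may be technical.

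Autophagy delivers cell contents to the lysosome inside a double-membraned vesicle, the autophagosome. The ULK1 kinase complex starts it, small ubiquitin-like proteins of the ATG8 family (the LC3 and GABARAP proteins) are attached to the growing membrane, and receptors such as p62 and BNIP3 tether the cargo to them. FoxO transcription factors, which insulin signalling keeps out of the nucleus through the kinase AKT, switch on genes of autophagy and of fasting metabolism. In white fat the pathway is known for its part in adipocyte differentiation and in the removal of mitochondria from beige adipocytes.

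Libraries held 14314517 to 19186696 counts. Oxtr, the oxytocin receptor gene, was at 22, 61.4 and 45.2 CPM (read counts scaled to library size) in WT replicates 10, 11 and 12. In ++Oxtr replicates 7, 8 and 9 it was at 90.7, 89.7 and 81.8 CPM, all above the WT libraries. The 10 adipocyte markers, Adipoq and Plin1 among them, summed to 29704 to 35941 CPM in WT and 28556 to 37742 CPM in ++Oxtr, and all of them had reads in every library. Macrophage markers were lower in 9 of 10 genes, at a summed 1158 to 1462 CPM in WT and 901 to 1053 CPM in ++Oxtr. T and natural killer cell markers, higher on average in 9 of 9 tested, summed to 51.7 CPM in ++Oxtr replicate 9. In ++Oxtr replicates 7 and 8 they summed to 13.2 and 12.1 CPM, below the 14.2 to 21 CPM of the WT libraries. Multiciliated epithelium markers, higher on average in 13 of 13 tested, summed to 193.9 CPM in ++Oxtr replicate 8, and to 41.5 CPM in ++Oxtr replicate 9, 34.8 CPM in WT replicate 12 and 5.07 to 6.45 CPM in the others. In bulk tissue, fewer cells of a type and less RNA per cell cannot be told apart.

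Promoter sequence was found for 8 of the 10 genes in RefSeq (GRCm38.p6). The stretches shown are those of Trp53inp2, Foxo1 and Bnip3, which had the lowest ++Oxtr levels relative to WT among the 10, and of Gabarapl1, which alone of the 8 carried a FoxO core motif. Each is 150 bases long, 5′ to 3′ on the strand of the gene, and ends just before a GENCODE exon of the gene; that of Trp53inp2 lies inside the gene's annotated span, since an annotated transcript starts further upstream. Capitals mark matches on either strand to the CCAAT box (CCAAT), to the core of the FoxO motif (TAAACA) and to the E-box (CACGTG).
Trp53inp2, chr2:155381664-155381813, plus strand: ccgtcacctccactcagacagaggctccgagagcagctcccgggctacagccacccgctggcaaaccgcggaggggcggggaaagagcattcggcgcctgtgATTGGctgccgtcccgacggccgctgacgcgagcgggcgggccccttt
Foxo1, chr3:52268186-52268335, plus strand: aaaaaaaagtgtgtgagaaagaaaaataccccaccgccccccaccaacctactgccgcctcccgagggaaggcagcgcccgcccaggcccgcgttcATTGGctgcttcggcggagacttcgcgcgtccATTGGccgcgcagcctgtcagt
Bnip3, chr7:138909520-138909669, minus strand: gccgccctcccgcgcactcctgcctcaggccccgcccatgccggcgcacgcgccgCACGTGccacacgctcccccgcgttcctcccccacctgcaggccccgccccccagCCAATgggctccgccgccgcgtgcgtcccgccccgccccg
Gabarapl1, chr6:129533010-129533159, plus strand: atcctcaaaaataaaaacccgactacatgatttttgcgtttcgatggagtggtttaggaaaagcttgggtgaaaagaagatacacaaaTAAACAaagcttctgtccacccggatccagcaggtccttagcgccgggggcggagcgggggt
The next 30 bases show the palindrome TGACGTCA, the cAMP response element, 41 bases before the RefSeq start of Trp53inp2 (chr2:155381804-155381833, plus strand), where the capitals mark it. The palindrome lies past the end of the Trp53inp2 stretch above, where a GENCODE exon of the gene begins. It is therefore not upstream of every annotated exon.
Trp53inp2: gggcccctttgTGACGTCAcaatcagctgt

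Over windows from 250 bases before to 50 after the start, TGACGTCA was present in 1.79% of 32851 RefSeq promoters and in 1 of the 8 genes, Trp53inp2. The E-box CACGTG, present in 7.15% of promoters, was found only in Bnip3 among the 8, 108 bases before the start. The FoxO core TAAACA or its reverse complement TGTTTA, present in 13.4% of promoters, was found only in Gabarapl1, 94 bases before the start. The longer form GTAAACA, which contains that core and is present in 3.65% of promoters, was in none of the 8. CCAAT or ATTGG was present in 37.4% of promoters and in 3 of the 8 genes, with 2 matches in the window of Trp53inp2, 3 in that of Foxo1 and 1 in that of Bnip3. The motifs were chosen after the promoters were read, so the shares over all promoters do not show that a match is unusual. The matches are of letters and are not shown sites of binding.

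Trp53inp2 was the member with the largest difference between groups. The gene (ENSMUSG00000038375, GRCm38 chromosome 2, 155381059 to 155389850, plus strand) codes for a cofactor of nuclear receptors that leaves the nucleus for autophagosomes and binds ATG8 proteins. The WT libraries (replicates 10, 11 and 12, the order used throughout) held 8761, 10341 and 8693 reads of it. The ++Oxtr libraries (7, 8 and 9) held 5742, 3968 and 3463. On the CPM scale it was at 516.6, 717.3 and 569.8 in WT and at 305.1, 261.4 and 233.8 in ++Oxtr. The highest ++Oxtr library thus lay well below the lowest WT library. The group means were 601.2 ± 103.9 and 266.7 ± 36 CPM (SD, n = 3), so that the ++Oxtr mean was 44.4% of the WT mean. The fitted log2 fold change was -1.17 (SE 0.16), and 0.43% of all genes tested had a lower one. It was -1.28 to -1.02 when any 1 library was left out. Macrophage markers were also lower in each ++Oxtr library than in each WT library. So were muscle markers, at a summed 12.8 to 25.9 CPM in WT and 4.45 to 11.5 CPM in ++Oxtr, with 3 of 4 tested lower and Myh4 at 0 in all libraries. The part of either in the Trp53inp2 values was not tested.

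**Figure D1:**
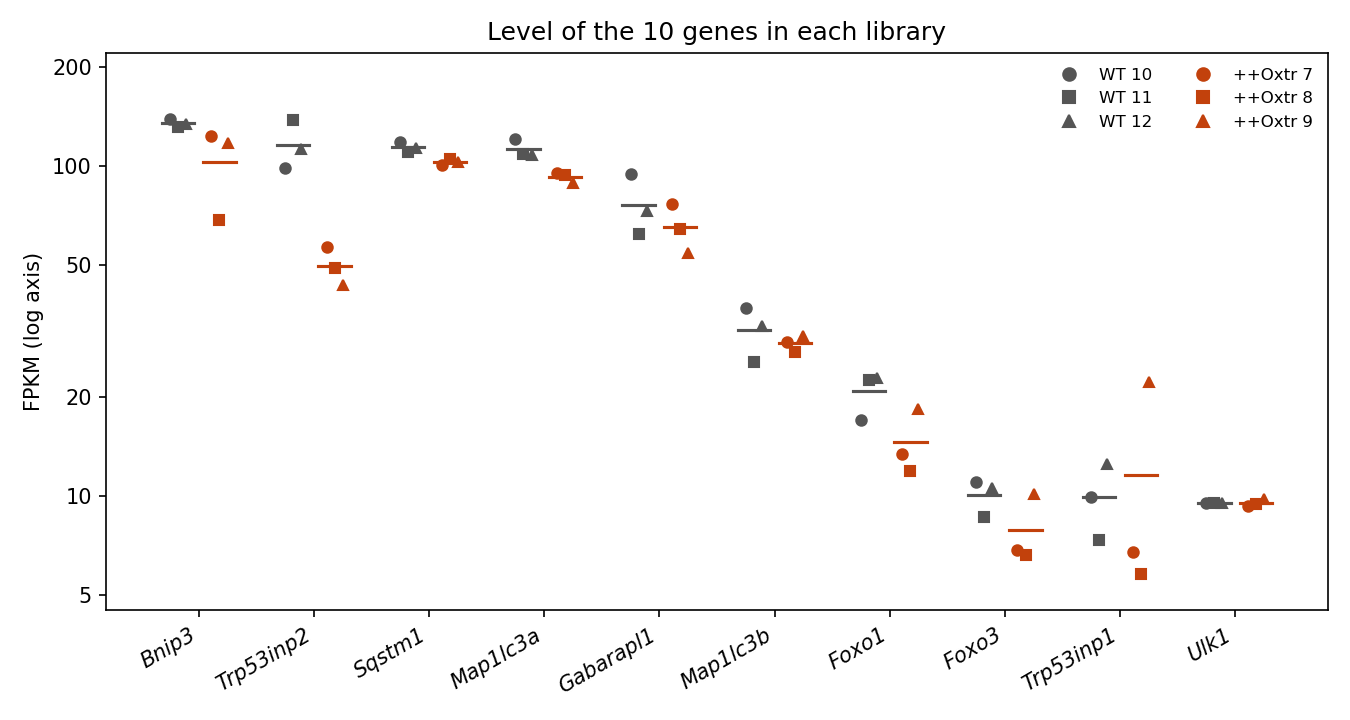
Deposited FPKM (log axis) of the 10 genes in each library, ordered by the WT mean; grey symbols are WT, orange symbols ++Oxtr, and short lines the group means. Trp53inp2 was at 98.3 to 137.4 FPKM in WT and 43.7 to 56.9 in ++Oxtr, while Ulk1 lay between 9.29 and 9.80 FPKM in all 6 libraries.

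FPKM, the read count scaled to gene length and library size, sets levels of different genes side by side. Such ranks and shares rest on the deposited gene lengths, which were 7517 bases for Map1lc3b and 1181 for Map1lc3a. Whether these lengths fit the transcripts made in this tissue was not tested. Trp53inp2 was at 116 ± 19.8 FPKM in WT and 49.9 ± 6.66 FPKM in ++Oxtr (SD, n = 3). By this measure it ranked 4, 1 and 3 among the 10 genes in WT replicates 10, 11 and 12, beside Bnip3, Sqstm1 and Map1lc3a. It ranked 5 in each ++Oxtr library, between Gabarapl1 and Map1lc3b. The plot of FPKM by library shows it among the 4 highest genes in WT and below them in ++Oxtr.

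Trp53inp1, the paralogue, codes for a stress protein induced by p53 that also binds ATG8 proteins (ENSMUSG00000028211, chromosome 4, 11156431 to 11174379, plus strand). It was at 64, 47.2 and 77.8 CPM in WT replicates 10, 11 and 12 and at 44.7, 37.9 and 146.3 CPM in ++Oxtr replicates 7, 8 and 9. ++Oxtr replicate 9 was the highest of the 6 libraries and ++Oxtr replicates 7 and 8 were the lowest, so the group means say little about any library. The fitted difference on the log2 scale was 0.27 (SE 0.53) over all libraries and -0.61 without ++Oxtr replicate 9. Per length, Trp53inp2 exceeded Trp53inp1 by 9.94, 18.7 and 9.02 times in WT replicates 10, 11 and 12. The ratio was 8.40 and 8.50 in ++Oxtr replicates 7 and 8 and 1.97 in ++Oxtr replicate 9. In that library Trp53inp1 thus made up 33.7% of the summed FPKM of the pair, against 5.07% to 10.6% in the others. T and natural killer cell markers were highest in the same library. Neutrophil markers, higher on average in 5 of 6 tested, were also highest there, at a summed 57.4 CPM against 12.9 to 37.2 CPM in the others. The summed adipocyte and stromal progenitor markers were highest there too, the latter at 5031 CPM against 3550 to 4732 CPM. The part of these in its Trp53inp1 level was not tested.

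**Figure D2:**
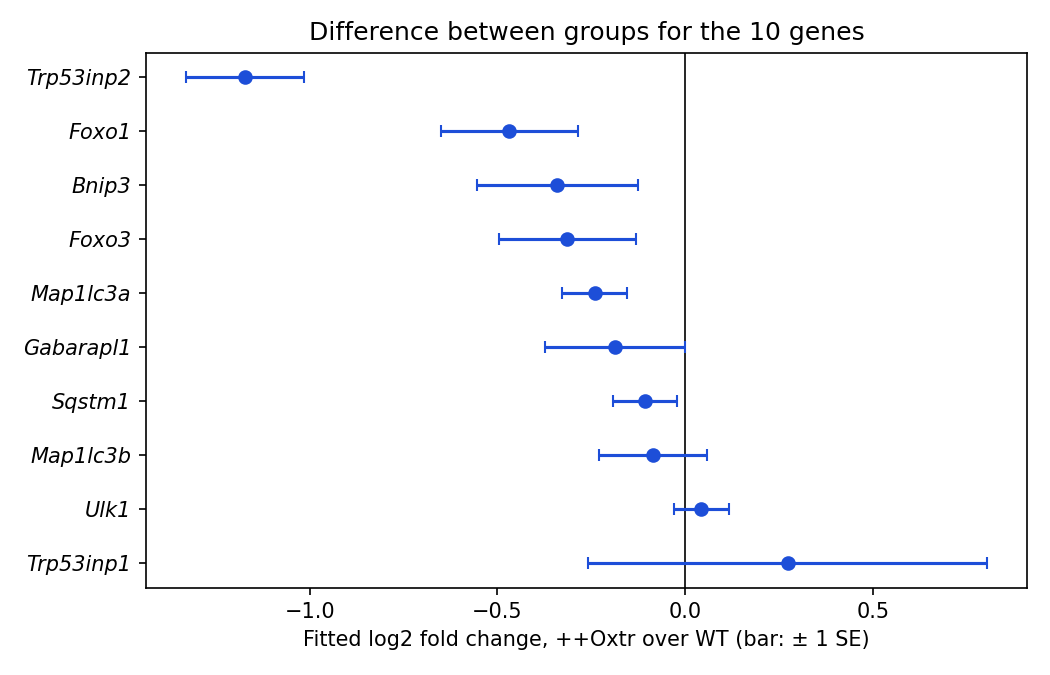
Fitted log2 fold change of the 10 genes, ++Oxtr over WT, with bars of 1 standard error to each side. Trp53inp2 lies at -1.17, Foxo1 at -0.47, and the bar of Trp53inp1, at 0.27, is the widest.

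Foxo1 and Foxo3 differed less and not in every library. Foxo1, which in adipocytes restrains differentiation and promotes lipolysis (ENSMUSG00000044167, chromosome 3, 52268336 to 52353221, plus strand), was at 147.1, 193.8 and 190.5 CPM in WT. In ++Oxtr replicates 7, 8 and 9 it was at 117.9, 104.6 and 161.5 CPM. ++Oxtr replicates 7 and 8 lay below all WT libraries, whereas ++Oxtr replicate 9 lay inside the WT range. The fitted log2 fold change of Foxo1 was -0.47 (SE 0.18), and it was -0.34 without ++Oxtr replicate 8 and -0.67 without ++Oxtr replicate 9. Foxo3, a close relative with overlapping targets (ENSMUSG00000048756, chromosome 10, 42181841 to 42276755, minus strand), had the same order of ++Oxtr libraries. It was at 83.5, 65.1 and 77.1 CPM in WT and at 53, 50.7 and 78 CPM in ++Oxtr replicates 7, 8 and 9. Its fitted log2 fold change was -0.31 (SE 0.18), at -0.20 without ++Oxtr replicate 8 and -0.54 without ++Oxtr replicate 9. Of the FoxO genes that are not members, Foxo4 was at 11.6 to 16.4 FPKM in WT and 13 to 15.4 FPKM in ++Oxtr, overlapping between groups. The share of Foxo1 in the summed FPKM of the 4 FoxO genes ran from 37.9% to 52.4% over WT libraries and from 36.8% to 41.5% over ++Oxtr libraries.

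The ATG8 genes showed small differences. Map1lc3a codes for LC3A (ENSMUSG00000027602, chromosome 2, 155276297 to 155278073, plus strand). It was at 142.8, 127.9 and 123.2 CPM in WT and at 114.3, 112 and 107.1 CPM in ++Oxtr, so the groups did not overlap. Its fitted log2 fold change was -0.24 (SE 0.09), and the spread within each group was small, with a coefficient of variation of 7.79% in WT and 3.32% in ++Oxtr. Map1lc3b codes for LC3B, the form most used to count autophagosomes (ENSMUSG00000031812, chromosome 8, 121590361 to 121598760, plus strand). It was at 279.5, 189.6 and 237.5 CPM in WT and at 224.4, 208.1 and 233.6 CPM in ++Oxtr. All ++Oxtr values lay inside the WT range, and the log2 fold change was -0.09 (SE 0.14), or 0.06 without WT replicate 10. Gabarapl1 codes for a GABARAP-like member (ENSMUSG00000030161, chromosome 6, 129533160 to 129542346, plus strand). It was at 189.7, 123.9 and 141.6 CPM in WT and at 157.1, 131.3 and 111.7 CPM in ++Oxtr. The groups overlapped, with a log2 fold change of -0.19 (SE 0.19), or 0.0076 without WT replicate 10, the highest library for both Gabarapl1 and Map1lc3b.

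The ATG8 genes Gabarap and Gabarapl2 are not members and complete the family in this table. Gabarap had the highest mean per length of the family, at 127.9 ± 6.41 FPKM in WT and 123 ± 5.69 FPKM in ++Oxtr (SD, n = 3), followed by Map1lc3a at 112.7 ± 7.14 and 92.6 ± 3.14 FPKM. In WT the ranges of these neighbours in the order nearly met, the lowest Gabarap library being at 121 FPKM and the highest Map1lc3a library at 120.9 FPKM, and in ++Oxtr they lay further apart. Gabarapl1 was next at 76.4 ± 16.4 and 65.2 ± 11 FPKM, then Map1lc3b at 31.8 ± 5.95 and 29.1 ± 1.58 FPKM, and Gabarapl2 at 20.5 ± 2.38 and 19.8 ± 0.767 FPKM. This order rests on the deposited lengths. By CPM, which leaves length out, the WT mean was 235.5 for Map1lc3b, 232.6 for Gabarap and 131.3 for Map1lc3a. The share of Map1lc3a in the summed FPKM of the family was 29.9% to 31.3% in WT and 27.1% to 28.9% in ++Oxtr.

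Sqstm1 codes for p62, a receptor that binds ubiquitin and LC3 and is degraded with its cargo (ENSMUSG00000015837, chromosome 11, 50199366 to 50210827, minus strand). It was at 397.6, 368.4 and 366.3 CPM in WT and at 345.3, 355.1 and 351.8 CPM in ++Oxtr. The groups did not overlap, but the gap between the nearest libraries was small, and the log2 fold change was -0.11 (SE 0.09), or -0.07 without WT replicate 10. Bnip3 codes for a mitophagy receptor of the outer mitochondrial membrane that hypoxia induces (ENSMUSG00000078566, chromosome 7, 138890836 to 138909519, minus strand). It was at 315.3, 295 and 292.7 CPM in WT and at 285.1, 156.8 and 271 CPM in ++Oxtr replicates 7, 8 and 9. The 3 WT libraries lay close together, ++Oxtr replicates 7 and 9 just below them, and ++Oxtr replicate 8 far below. The log2 fold change of Bnip3 was -0.34 (SE 0.21) with all libraries and -0.11 without ++Oxtr replicate 8, the library in which multiciliated epithelium markers were highest. Bnip3l, its paralogue and not a member, was at 191 CPM in that library and at 185.8 to 226.7 CPM in the others.

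Ulk1, the kinase that starts autophagosome formation and that mTORC1 inhibits, had the narrowest range of the 10 genes (ENSMUSG00000029512, chromosome 5, 110784488 to 110810097, minus strand). It was at 61.8, 61.5 and 59.4 CPM in WT and at 61.5, 62.1 and 64.7 CPM in ++Oxtr. Its log2 fold change was 0.04 (SE 0.07), and the coefficient of variation was 2.11% in WT and 2.77% in ++Oxtr, where the medians over all genes tested were 11.5% and 12.6%.

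Of the 10 genes 8 had a fitted log2 fold change below 0, as did 49.2% of all genes tested, and the median was -0.21, against 0.0040 over all genes. The groups did not overlap in 4, all lower in ++Oxtr (Trp53inp2, Map1lc3a, Sqstm1 and Bnip3), and over all genes this held for 7.61% lower and 7.45% higher in ++Oxtr. No member passed an adjusted p of 0.05 by edgeR, as 0% of all genes did. At an unadjusted edgeR p under 0.05 there were 3 (Trp53inp2, Map1lc3a and Foxo1), all lower, where 4.47% of all genes were lower and 4.44% higher. DESeq2 at an adjusted p of 0.05 took 1, Trp53inp2, where it took 0.708% of all genes as lower and 0.693% as higher. As the genes were chosen with this comparison in view, nothing is read from these counts.

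Some reads of the members could belong to other genes. In GENCODE M21 transcripts, 0% of the 31-base words of Trp53inp2, Trp53inp1 and Map1lc3a occurred in another gene on either strand. For Map1lc3b 7.77% were shared on the same strand, most with the pseudogenes Gm6055 and Gm12727. For Bnip3 20.3% were shared on the same strand, most with Gm16439, and 55.2% on the opposite strand, most with AC160336.1. On the opposite strand, 25.2% were shared for Gabarapl1, 16.4% for Sqstm1 (with Mrnip, which had 31 to 46 reads per library) and 7.91% for Foxo1. Whether counting used strand is not given in the sources used here, so the values of Bnip3, Gabarapl1 and Foxo1 carry this uncertainty.

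Trp53inp2 and Map1lc3a lie near each other on chromosome 2, with 102985 bases between the end of Map1lc3a and the start of Trp53inp2. Pigu, which codes for a subunit of the GPI transamidase, is the tested gene between them. It was at 28.8, 33.3 and 27.5 CPM in WT and at 25, 24.7 and 23.8 CPM in ++Oxtr, with a log2 fold change of -0.28 (SE 0.11; edgeR adjusted p = 0.498) and groups that did not overlap. Ncoa6, a nuclear receptor coactivator gene on the opposite strand whose end lies just past Trp53inp2, was at 65.4 ± 1.65 CPM in WT and 63.4 ± 2.17 CPM in ++Oxtr (SD, n = 3), with a log2 fold change of -0.04 (SE 0.07). On the other side Dynlrb1, Itch and Ahcy had log2 fold changes of -0.03, -0.10 and -0.16. Beyond Ncoa6, Ggt7 was at -0.17 (SE 0.34), and Acss2, which makes acetyl-CoA from acetate, was the only one of the 7 tested neighbours on the higher side, at 0.82 (SE 0.33, edgeR adjusted p = 0.538). None of the 7 passed an adjusted p of 0.05 by edgeR or DESeq2.

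**Figure D3:**
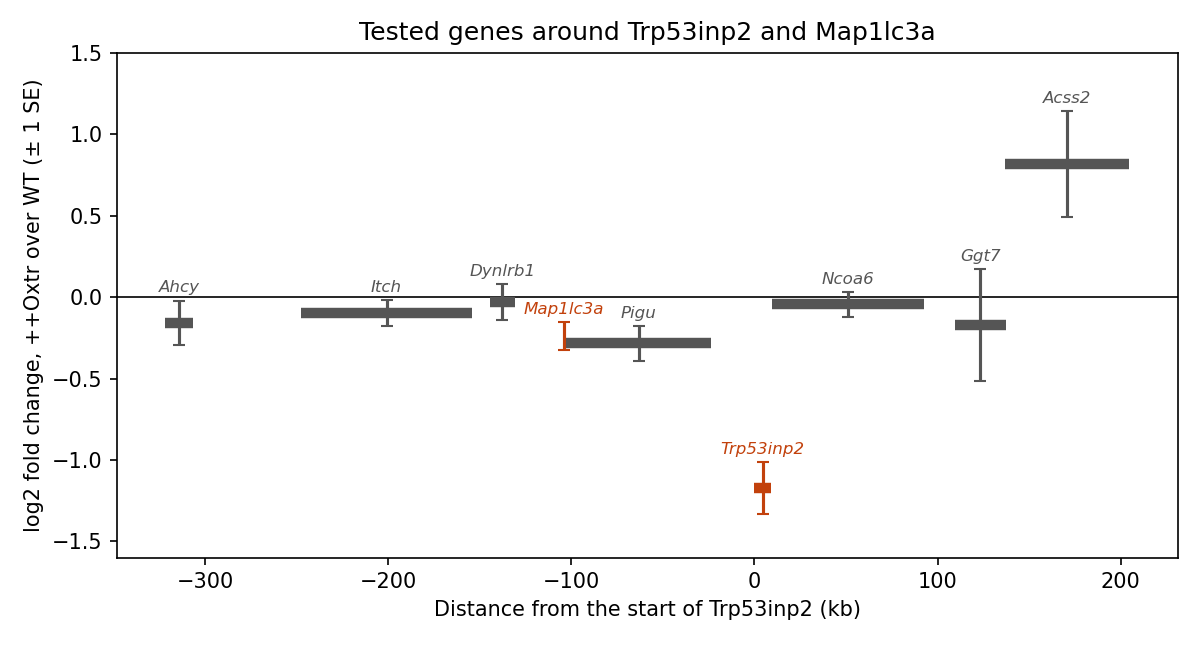
Fitted log2 fold change, ++Oxtr over WT, of tested genes around Trp53inp2 and Map1lc3a (orange), plotted against distance from the start of Trp53inp2 in kilobases; thick bars span each gene and thin bars show 1 standard error. Trp53inp2 lies at -1.17, its next gene Ncoa6 at -0.04, and Acss2 at 0.82.

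The genes whose log2 CPM followed Trp53inp2 most closely over the 6 libraries, among 13128 genes of at least 1 CPM on average, were Atxn3, Tbl1x, Antxr2, Prrt1 and Vapa, with Pearson correlations of 0.992 to 0.987. They share the libraries and the difference between groups with Trp53inp2, so these values describe likeness only. Antxr2, a receptor for collagen fragments and anthrax toxin, was at 122.3, 144.5 and 120.5 CPM in WT and at 95.6, 84.5 and 76.2 CPM in ++Oxtr. Tbl1x, a subunit of nuclear receptor corepressor complexes, was at 198.7, 213.8 and 196.2 CPM in WT and at 169.1, 158.7 and 160.4 CPM in ++Oxtr. Closest to Foxo1 were Hmmr, Grap, Ache, Tle1 and Olfml2a, with correlations of 0.994 to 0.986. Tle1, a Groucho-type corepressor gene, was at 60.3, 73.7 and 68.6 CPM in WT and at 45.7, 41.2 and 63.3 CPM in ++Oxtr replicates 7, 8 and 9. Like Foxo1, it was inside the WT range in ++Oxtr replicate 9 only among the ++Oxtr libraries. Among the members themselves, Map1lc3a was closest to Trp53inp2 (r = 0.803) and Foxo3 to Foxo1 (r = 0.711), each over 6 libraries that fall into the 2 groups.

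The other genes of these pathways were taken from 9 lists of 159 genes, of which 155 were tested and 4 stood in more than 1 list. By edgeR 0 of the 155 passed an adjusted p of 0.05. At an unadjusted p under 0.05 there were 9 higher and 8 lower in ++Oxtr, of the 155 tested. Over all 13566 genes there were 603 higher (4.44%) and 606 lower (4.47%). DESeq2 took 4 of the 155 as higher and 2 as lower at an adjusted p of 0.05. Over all genes it took 94 as higher (0.693%) and 96 as lower (0.708%). The lists were chosen with earlier results of these data known, so nothing is read from these counts. The shares over all genes are also the background of each list count given below. The median log2 fold change of the 155 genes was 0.01, close to that of all genes.

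Genes of initiation and nucleation, the steps in which ULK1 acts, had a median log2 fold change of -0.06 over 12 genes. At an unadjusted edgeR p under 0.05, 3 were lower (Nrbf2, Atg101 and Uvrag) and 0 higher. Over all genes 4.47% were lower and 4.44% higher at that p. In the list 1 was lower without WT replicate 10, without ++Oxtr replicate 7 or without ++Oxtr replicate 8. Nrbf2, a subunit of the VPS34 lipid kinase complex, was at 26.9, 36.3 and 33.9 CPM in WT and at 23.3, 20.5 and 19.2 CPM in ++Oxtr, with every ++Oxtr library below the WT libraries. Its log2 fold change was -0.62 (SE 0.14; edgeR adjusted p = 0.347; DESeq2 adjusted p = 0.0386). The DESeq2 value ran from 0.0023 to 0.282 with 1 library left out, and it was under 0.05 in 2 of 6 such fits (without WT replicate 10 and without ++Oxtr replicate 7). Atg101, a subunit of the ULK1 complex, was at 23.4 ± 1.96 CPM in WT and 19.1 ± 1.12 CPM in ++Oxtr (SD, n = 3; edgeR adjusted p = 0.511). Rb1cc1, the scaffold of that complex, was at 85.2 ± 4.14 and 76.4 ± 5.38 CPM, with a log2 fold change of -0.16 (SE 0.09).

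The enzymes that attach ATG8 proteins to membranes and the proteins of membrane growth had a median log2 fold change of 0.03 over 19 genes, with 1 higher at an unadjusted edgeR p under 0.05 and 0 lower. Without WT replicate 12 there was 0 higher, without ++Oxtr replicate 7 there were 2, and without ++Oxtr replicate 8 there was also 1 lower. The gene counted over all libraries was Wipi1, a phosphoinositide-binding protein of the growing membrane, at 45.5 ± 0.972 CPM in WT and 54.8 ± 5.62 CPM in ++Oxtr (SD, n = 3; edgeR adjusted p = 0.490). Atg7, the activating enzyme of both conjugation systems, was at 51, 52.9 and 49.4 CPM in WT and at 54.4, 57.8 and 63.7 CPM in ++Oxtr. Its log2 fold change was 0.20 (SE 0.09, edgeR adjusted p = 0.567). Atg4c, a protease that trims ATG8 proteins, had a log2 fold change of 0.36 (SE 0.16).

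Selective autophagy receptors and mitophagy genes had a median log2 fold change of 0.01 over 18 tested genes. At an unadjusted edgeR p under 0.05, 3 were higher (Optn and Pink1 among them) and 0 lower. Over all genes 4.44% were higher and 4.47% lower at that p. In the list 4 were higher without WT replicate 10 or ++Oxtr replicate 7, 2 without WT replicate 11 and 1 without WT replicate 12. Pink1, the kinase that marks damaged mitochondria, was at 157.3, 131.5 and 133.4 CPM in WT and at 171.5, 171.6 and 173.5 CPM in ++Oxtr. The groups did not overlap, and the log2 fold change of Pink1 was 0.29 (SE 0.09; edgeR adjusted p = 0.459; DESeq2 adjusted p = 0.23). Optn, a receptor that PINK1 signalling recruits, was at 50.2 ± 2.93 CPM in WT and 61.9 ± 5.83 CPM in ++Oxtr (SD, n = 3), with a log2 fold change of 0.30 (SE 0.10). Optn and Pink1 lay on the other side of 0 from the receptor genes Bnip3 and Sqstm1. Nbr1, a receptor related to p62, was at 182.3 ± 18.4 and 183 ± 14 CPM.

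Genes of autophagosome fusion and of the TFEB family had a median log2 fold change of -0.0014 over 20 genes, with 0 at an unadjusted edgeR p under 0.05. There were 2 higher without ++Oxtr replicate 9, and 1 lower without WT replicate 11 or ++Oxtr replicate 8. Lamp2, a lysosomal membrane protein gene, was at 414.7 ± 37.1 CPM in WT and 355.1 ± 10.1 CPM in ++Oxtr, and Rab7, a GTPase of late endosomes, at 242.4 ± 14.2 and 216.3 ± 0.298 CPM (SD, n = 3). Both were lower in each ++Oxtr library than in each WT library, with edgeR adjusted p of 0.567 and 0.612. Stx17, the autophagosomal SNARE, had a log2 fold change of 0.04 (SE 0.10).

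Genes of mTORC1, AMPK and AKT signalling, which act on ULK1 and on FoxO proteins, had a median log2 fold change of -0.0018 over 24 genes. The list held both genes of mTORC1, such as Mtor, and genes of its inhibitors, such as Tsc1. Its median is therefore no measure of pathway activity. At an unadjusted edgeR p under 0.05, 1 was lower and 0 higher, and 3 were lower without ++Oxtr replicate 9 and 2 without WT replicate 10. For the higher side the count was 2 without ++Oxtr replicate 8 and 1 without WT replicate 10. Prkab2, a regulatory subunit of AMPK, was at 37.6, 33.8 and 29.5 CPM in WT and at 27.8, 23.7 and 21.5 CPM in ++Oxtr, with a log2 fold change of -0.47 (SE 0.14; edgeR adjusted p = 0.418). Tsc1, an inhibitor of mTORC1, had a log2 fold change of 0.26 (SE 0.11), and Mtor one of 0.04 (SE 0.09).

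FoxO targets and the other FoxO genes had a median log2 fold change of 0.12 over 22 tested genes, while Foxo1 and Foxo3 themselves were at -0.47 and -0.31. The list median was -0.02 without ++Oxtr replicate 9. At an unadjusted edgeR p under 0.05, 1 was lower and 0 higher, but 2 were higher without ++Oxtr replicate 9 and 1 without WT replicate 10 or WT replicate 11. Ccng2, a cyclin gene that FoxO factors induce, was at 90.1, 82.7 and 79.3 CPM in WT and at 67.6, 58.6 and 69.5 CPM in ++Oxtr, with a log2 fold change of -0.36 (SE 0.10; edgeR adjusted p = 0.380). Sod2, mitochondrial superoxide dismutase, was at 151.5 ± 15.1 CPM in WT and 178.4 ± 13.8 CPM in ++Oxtr (SD, n = 3), with a log2 fold change of 0.24 (SE 0.10).

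Several FoxO targets had their highest value in ++Oxtr replicate 9, as Trp53inp1 did. That library was the highest of the 6 for 9 of the 22 genes, 40.9%, and for 21.1% of all genes tested. It was also the highest for 38.9% of the selective autophagy receptors, and WT replicate 11 was the lowest for 40.9% of the FoxO list, against 17.2% of all genes. Such shares were not particular to FoxO targets. ++Oxtr replicate 8 was the highest for 64.3% of NRF2 targets, against 20.2% of all genes. ++Oxtr replicate 9 was the lowest for 50% of the fusion list, 50% of the NRF2 list and 47.4% of the conjugation list, against 23.3% of all genes. These tallies were added after seeing the data. Irs2, an insulin receptor substrate gene, was at 93.2, 114.4 and 82.8 CPM in WT and at 85.6, 63.8 and 202.3 CPM in ++Oxtr replicates 7, 8 and 9. Klf15, a transcription factor of amino acid and lipid catabolism named after its values were seen, had WT levels of 69.4 to 103.9 CPM and ++Oxtr levels of 88.1, 88.5 and 188 CPM. Pdk4, a kinase that inhibits pyruvate dehydrogenase and was also named after its values were seen, had WT levels of 124.8 to 241 CPM and ++Oxtr levels of 174, 123.7 and 339.5 CPM. In each of these 3 genes ++Oxtr replicate 9 was the highest library and ++Oxtr replicates 7 and 8 were not above the WT range.

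**Figure D4:**
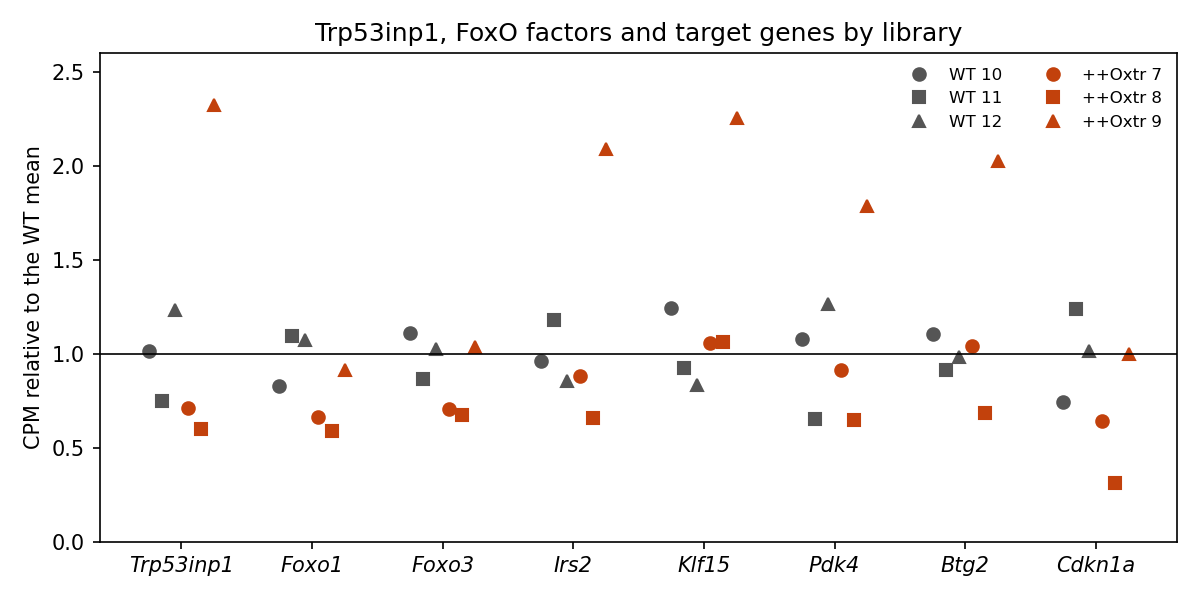
CPM of Trp53inp1, Foxo1, Foxo3, FoxO targets (Irs2, Klf15 and Pdk4) and p53 targets (Btg2 and Cdkn1a) in each library, divided by the WT mean of the gene; Klf15, Pdk4 and Btg2 were chosen after their values were seen. ++Oxtr replicate 9 (orange triangles) is the highest library for Trp53inp1 at 146.3 CPM and for Irs2 at 202.3 CPM, and not for Foxo1, Foxo3 or Cdkn1a.

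The p53 targets, of which Trp53inp1 is one by its known regulation, had a median log2 fold change of -0.07 over 16 genes, with 0 at an unadjusted edgeR p under 0.05, or 1 higher and 1 lower without ++Oxtr replicate 9. That library was the highest for 2 of the 16, a list that also held Trp53, the gene of p53 itself. Cdkn1a, which codes for the cell cycle inhibitor p21, was at 54.5, 90.7 and 74.1 CPM in WT and at 46.9, 22.8 and 72.9 CPM in ++Oxtr replicates 7, 8 and 9. Gadd45a, a stress response gene that also stood in the FoxO list, was at 3.30, 3.47 and 2.75 CPM in WT and at 6.38, 5.80 and 3.04 CPM in ++Oxtr, with a log2 fold change of 0.68 (SE 0.33). Btg2, an antiproliferative gene (named with its values known), reached 144.4 CPM in ++Oxtr replicate 9 and 48.9 to 78.7 CPM in the other libraries.

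**Figure D5:**
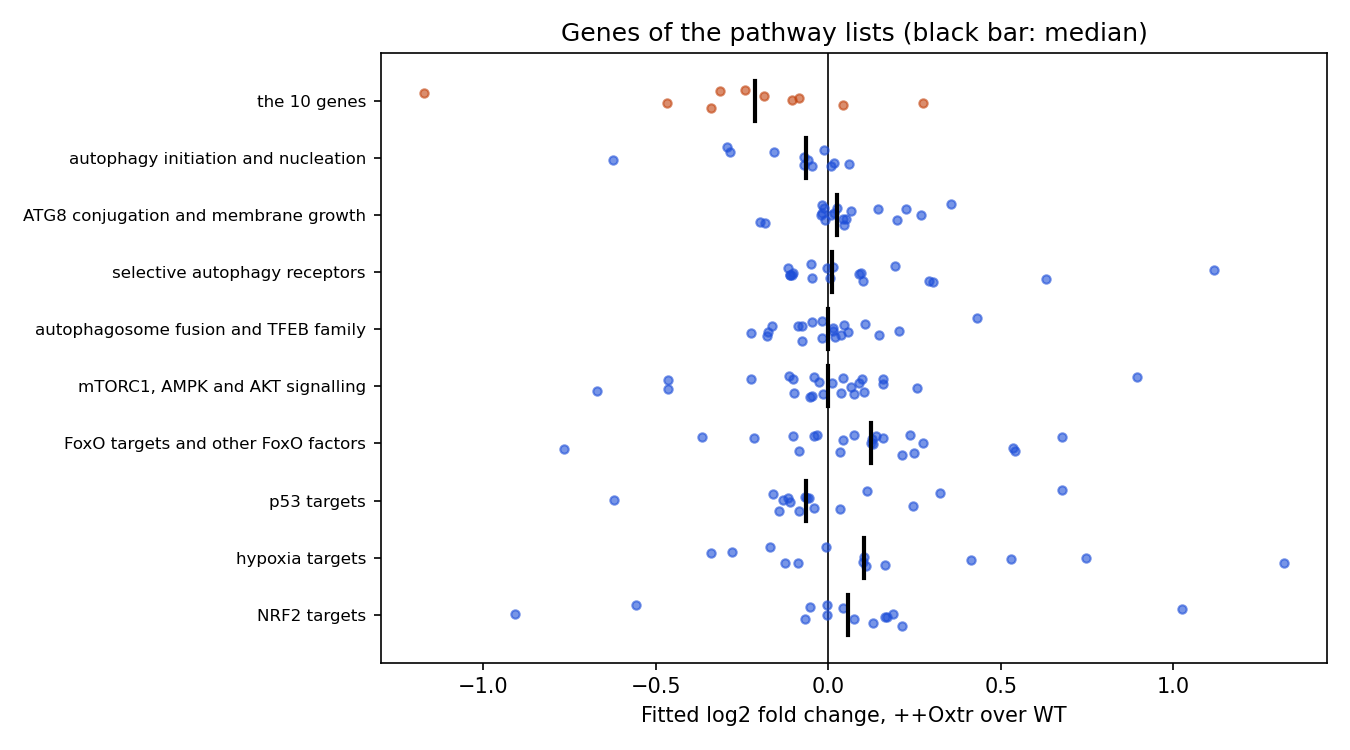
Fitted log2 fold change, ++Oxtr over WT, of the 10 genes (orange) and of every tested gene in the 9 pathway lists (blue), 1 point per gene with the list median as a black bar; vertical jitter carries no meaning. List medians lie between -0.07 and 0.12, and the median of the 10 genes, which were chosen with this comparison in view, at -0.21.

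Bnip3 is also known as a hypoxia target. For the list of other hypoxia targets, over 14 tested genes, the median log2 fold change was 0.10. At an unadjusted edgeR p under 0.05, 4 were higher (Vegfa, Pgk1, Egln3 and Pdk1) and 2 lower (Ndrg1 and Hif1a). There were 3 higher without WT replicate 10, 11 or 12, and 1 lower without WT replicate 10. Over all genes 4.44% were higher and 4.47% lower at that p. The list thus also held Hif1a, which codes for the hypoxia factor itself. Egln3, a prolyl hydroxylase of the hypoxia pathway, was at 5.01, 2.50 and 5.18 CPM in WT and at 8.66, 8.76 and 14.4 CPM in ++Oxtr. Its log2 fold change was 1.32 (SE 0.34; edgeR adjusted p = 0.368; DESeq2 adjusted p = 0.025). Pgk1, a glycolytic enzyme gene, was at 139.6 ± 10.8 CPM in WT and 186 ± 9.04 CPM in ++Oxtr (SD, n = 3), with a DESeq2 adjusted p of 0.0127. Vegfa, the vascular growth factor, was at 320.1, 310.7 and 338.7 CPM in WT and at 352.4, 435.6 and 612.6 CPM in ++Oxtr. Hif1a itself had a log2 fold change of -0.34 (SE 0.09, edgeR adjusted p = 0.378). DESeq2 took 3 of the 14 as higher over all libraries (Pgk1, Egln3 and Pdk1) and 0 as lower. Over all genes it took 0.693% as higher and 0.708% as lower. With 1 library left out, its adjusted p for Egln3 ran from 0.038 to 0.199 and was under 0.05 in 1 of 6 fits. That of Pgk1 ran from 0.00143 to 0.155 and was under 0.05 in 2 of 6, and that of Pdk1 ran from 0.0217 to 0.168 and was under 0.05 in 3 of 6. None of the 3 was under 0.05 without ++Oxtr replicate 8.

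NRF2 targets, the group of oxidative stress genes to which Sqstm1 belongs, had a median log2 fold change of 0.06 over 14 genes, with 1 higher and 1 lower at an unadjusted edgeR p under 0.05. There were 3 higher without ++Oxtr replicate 9 and 2 without WT replicate 12, and 2 lower without WT replicate 10 or ++Oxtr replicate 8. The list also held Nfe2l2, the gene of NRF2 itself, and Keap1, that of its inhibitor. Hmox1, heme oxygenase, was at 55, 55.5 and 54.4 CPM in WT and at 39.8, 39.4 and 32.8 CPM in ++Oxtr, with a log2 fold change of -0.56 (SE 0.10). The adjusted p from edgeR was 0.258, and that from DESeq2 was 0.00341 and ran from 0.00697 to 0.0514 (without WT replicate 12) with 1 library left out. Macrophages also express Hmox1, and macrophage markers were lower in the same libraries; their part in it was not tested. Me1, malic enzyme, was at 507.6, 997.3 and 863.7 CPM in WT and at 1196, 2020 and 1600 CPM in ++Oxtr, where edgeR gave an adjusted p of 0.412 and DESeq2 one of 0.0126. The DESeq2 value was under 0.05 in 2 of 6 fits with 1 library left out (WT replicate 11 or ++Oxtr replicate 7). Nqo1, a classical NRF2 target, was at 6.51 ± 0.284 and 6.50 ± 1.71 CPM.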

How the data were processed

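Per the labels' protocols, RNA came from a Trizol extraction and the libraries from NEBNext Ultra II reagents. The authors deposited raw read counts and FPKM for 21959 genes, per the file headers. The FPKM was recomputed from the deposited counts, gene lengths and column totals and matched to rounding. The build is mm10, per the submitters' processing notes, but of 21851 identifiers in GENCODE M21 21394 had the same span size and only 514 the same GRCm38 start and end. Positions printed here are therefore those of GENCODE M21. Which aligner, counter and strand setting were used is not given in the sources used here. Groups were taken from the sample titles.

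Counts were fitted with edgeR 4.0.16 in R 4.3.3 (quasi-likelihood F-test) over all 6 libraries, with TMM factors, robust dispersion, filterByExpr and Benjamini-Hochberg adjustment over 13566 genes. CPM are scaled with the TMM factors. Log2 fold changes are ++Oxtr over WT, and the SE is the fold change over the square root of F. DESeq2 1.42.0 and limma 3.58.1 were alternatives, as were other scalings, filters and each library left out. On simulated counts for this comparison (13566 genes, 200 changed) edgeR called 63% of the 2-fold changes, 84% of the 4-fold changes and 17 genes that were simulated without one. DESeq2 called 72%, 88.9% and 52 genes, respectively. The changed genes were drawn only from those above a floor on counts, and the noise of each gene was simulated on its own. Shifts shared by many genes in a single library were not simulated, so these shares may not hold for the real libraries.

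The members, the 9 pathway lists and the marker lists were chosen with earlier results of these data known. Named by rule were the members, Oxtr, the first gene and the 2 with the smallest p of each list, 3 tested genes to each side of Trp53inp2 and Map1lc3a and those between, and the 5 genes most correlated with Trp53inp2 and with Foxo1. Other genes counted at an unadjusted p, and those said to be so, were named after their values were seen. Motifs were chosen after the promoters were read. Protein sequences were not used here, and 1 gene of the receptor list is counted but not reported by name.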

Additional observations from a re-analysis of the deposited data

How the results depend on the processing

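No paired analysis was possible because no replicate number occurs in both genotypes. By edgeR 0 genes passed an adjusted p of 0.05 under other scalings, other filters and with each library left out, and limma-voom and limma on log2 of FPKM plus 0.5 also gave 0. At an unadjusted edgeR p under 0.05 there were 603 higher and 606 lower. DESeq2 gave 190, and, in fits added after seeing the data, 192, 141 and 113 without WT replicates 10, 11 and 12 and 279, 128 and 208 without ++Oxtr replicates 7, 8 and 9. Trp53inp2 was at -1.20 to -1.12 over the other tools, scalings and filters. Trp53inp1 ran from -0.609 (without ++Oxtr replicate 9) to 0.596 with 1 library left out, and was at -0.301 with limma-voom. Ulk1 was at -0.00175 with limma on FPKM. The initiation list had a median of -0.0351 with upper quartile factors, -0.10 with limma on FPKM and -0.101 to -0.0422 with 1 library left out. The signalling list was at 0.0544 with limma-voom, 0.0264 with upper quartile factors, -0.0384 with limma on FPKM and -0.0502 to 0.0755 with 1 library left out. With 1 library left out the receptor list ran from -0.0182 to 0.0771 and the FoxO list from -0.0247 to 0.212. The NRF2 list ran from 0.0114 to 0.151. The medians of the conjugation and fusion lists, near 0, also took either sign. List counts with 1 library left out were added after seeing the data, as were the tallies of the highest and lowest library. With 3 libraries a group, the differences of Map1lc3b, Gabarapl1 and Trp53inp1 lay within the spread between libraries. That of Bnip3, at -0.34, was about the size of its SD within groups on the log2 scale (0.34). That of Foxo3, at -0.31, was little above its SD (0.27), and its groups overlapped.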
